A study of Mus musculus with 8 samples.

Results

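The genes described here are 9 homeobox genes whose proteins partner HOX factors: PBX2, PBX3 and PBX4, MEIS1, MEIS2 and MEIS3, PKNOX1 and PKNOX2, and TGIF1. They were chosen by symbol among the 33514 rows of the deposited count table, and all 9 symbols had a row. Of the 9, 7 had a count in at least 1 library and 5 (PBX2, PBX3, MEIS1, MEIS2 and PKNOX2) passed the filter on low counts, which kept 3020 genes. RNA came from cultured cardiomyocytes, the contractile cells of the heart, isolated from adult C57BL/6 mice. In 4 libraries the cells carried a control siRNA (siN) and in 4 an siRNA against Hoxa5 (siHoxa5). Both groups received phenylephrine, an agonist of alpha1-adrenergic receptors used to induce hypertrophic growth, at 100 µM for 24 h, added 24 h after transfection, so every value below is from stimulated cells. Whether the 4 repeats of each group are separate animals or cultures is not stated in the labels. The p-values therefore measure the spread between these libraries, which may be technical.

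PBX, MEIS, PKNOX (also called PREP) and TGIF proteins belong to the TALE class of homeodomain proteins, named for an insertion of amino acids in the loop between the first helices of the homeodomain. PBX proteins bind DNA together with HOX proteins and raise the selectivity of their binding. MEIS and PKNOX proteins bind PBX through a conserved region near their amino terminus, which keeps PBX in the nucleus, and some MEIS proteins also contact HOX proteins of the posterior groups. TGIF1 has the same type of homeodomain and acts mainly as a repressor, through SMAD proteins of the TGF-beta pathway and through histone deacetylases. In mouse heart muscle, MEIS1 is known as a factor that limits the cell cycle of cardiomyocytes after birth, and MEIS and PBX factors are needed for the development of the outflow tract.

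The stretch of coding sequence that runs from this loop through the DNA-contacting helix is shown for all 9 genes, because it is what groups them and what reads would have to tell apart. Each is 105 bases, 5′ to 3′ on the coding strand of a spliced mouse transcript (GENCODE M21, GRCm38), and capitals mark 12 bases within that helix. Not every coding transcript of a gene holds the stretch shown. It is in 3 of 4 for PBX2, 2 of 5 for PBX3, 1 of 2 for PBX4 and 2 of 4 for MEIS3. For PKNOX1 it is in 8 of 9, for PKNOX2 in 3 of 7 and for TGIF1 in 6 of 9. All 4 of MEIS1 and all 6 of MEIS2 hold it. The capitals were found by searching every coding transcript in its reading frame, on the coding strand only, for the codons TGG, TTN, GGN and AAN in a row (N, any base) and for the same row with ATN in place of GGN.
PBX2: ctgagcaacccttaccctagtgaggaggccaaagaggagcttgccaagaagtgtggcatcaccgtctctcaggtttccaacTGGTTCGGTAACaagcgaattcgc
PBX3: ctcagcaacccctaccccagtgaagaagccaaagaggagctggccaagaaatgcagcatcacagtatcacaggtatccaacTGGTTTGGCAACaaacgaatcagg
PBX4: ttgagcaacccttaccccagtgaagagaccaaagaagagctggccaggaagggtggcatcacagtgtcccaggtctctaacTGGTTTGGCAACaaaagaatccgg
MEIS1: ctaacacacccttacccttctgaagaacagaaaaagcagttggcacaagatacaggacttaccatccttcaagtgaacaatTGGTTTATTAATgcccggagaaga
MEIS2: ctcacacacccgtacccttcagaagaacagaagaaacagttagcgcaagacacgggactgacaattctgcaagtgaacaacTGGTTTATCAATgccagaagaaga
MEIS3: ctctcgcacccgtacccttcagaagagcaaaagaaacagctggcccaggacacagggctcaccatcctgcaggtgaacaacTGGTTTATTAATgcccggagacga
PKNOX1: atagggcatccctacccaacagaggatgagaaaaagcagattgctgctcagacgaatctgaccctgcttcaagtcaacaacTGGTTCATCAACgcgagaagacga
PKNOX2: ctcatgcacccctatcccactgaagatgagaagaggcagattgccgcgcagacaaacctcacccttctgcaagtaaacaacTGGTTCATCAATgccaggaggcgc
TGIF1: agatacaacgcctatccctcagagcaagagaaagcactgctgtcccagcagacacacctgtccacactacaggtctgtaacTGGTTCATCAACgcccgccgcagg

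The 3 PBX genes held the row with GGN and the other 6 that with ATN. Of 58797 coding transcripts of the annotation, 0.207% held the first row in frame and 0.204% the second. Within a family the stretches were close: 86 to 88 of 105 bases were identical between any pair of PBX genes and between any pair of MEIS genes, and 81 between PKNOX1 and PKNOX2. Across families the MEIS and PKNOX stretches shared 67 to 75 bases, the MEIS and PBX stretches 52 to 61, and TGIF1 shared 63 bases with either PKNOX gene. In all 36 pairs, the mouse transcripts shared 0 words of 50 bases on the same strand. On that strand, a match of 50 bases or more without a mismatch therefore points to 1 of the 9 genes only. The library kit keeps no strand information, and matches between opposite strands were not searched. The gene symbols in the table are spelled as human genes, however, and the annotation and the rule for reads with several matches are not stated in the labels. Some symbols, such as ZNF462 and TGIF2LX, are names of human genes and not mouse symbols in capitals. With these names, abundant heart genes at 0 and low library totals (values below), it is in doubt that the counts were made against this mouse annotation. The statement on reads, and the levels per kilobase of mouse transcript given further on, hold only if they were.

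The PBX stretches lie at chr17:34594646-34594833 (PBX2, plus strand), chr2:34178310-34204851 (PBX3, minus strand) and chr8:69866532-69870061 (PBX4, plus strand), each split between exons 5 and 6. Those of MEIS1 (chr11:18885630-18941664, minus strand), MEIS2 (chr2:115868782-116000136, minus strand), MEIS3 (chr7:16182463-16184059, plus strand) and PKNOX1 (chr17:31599638-31603208, plus strand) run from exon 8 to exon 10. That of PKNOX2 (chr9:36894477-36909634, minus strand) runs from exon 10 to exon 12, and that of TGIF1 (chr17:70845240-70846243, minus strand) from exon 2 to exon 3. The whole genes differ widely in span, from 6.14 kb for PBX2 to 202 kb for PBX3, 203 kb for MEIS2 and 256 kb for PKNOX2.

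Values are given as CPM, counts scaled to the TMM-adjusted library total. Library totals were low, 635825 to 658192 counts in siN and 560191 to 619942 in siHoxa5, and 215 of the 3020 tested genes (7.12%) passed an edgeR adjusted p of 0.05. Of 18 cardiomyocyte markers, 11 had a count, with a summed level of 54190 to 57756 CPM in siN and 68348 to 73293 CPM in siHoxa5, while TNNI3, PLN, MB, MYL2, MYL3, NPPA and NPPB were at 0 in all 8 libraries. HOXA5, the target of the siRNA, had 2, 0, 3 and 3 counts in siN libraries 1 to 4 and 1, 3, 4 and 1 in siHoxa5 libraries 1 to 4. The ratio of its rates was 1.24 (exact 95% interval 0.426 to 3.70, counting error only), and its log2 fold change in a fit without the filter was 0.31 (SE 0.85, edgeR adjusted p = 0.887). A lower level of the target was thus not seen, but at most 4 counts per library are too few to measure one well. A level under 0.426 of siN lies outside the interval of counting error, while the 95% interval of the fit reaches down to 0.389. These bounds do not show whether the siRNA lowered its target. Directions are those of libraries labelled siHoxa5 against libraries labelled siN. On the first principal component of all tested genes, siHoxa5 libraries 2 and 4 (10.8 and 11.0) lay farther from the siN libraries (-7.77 to -6.30) than siHoxa5 libraries 1 and 3 (2.74 and 4.69). Libraries 2 and 4 also had the lowest totals, 560191 and 574883 counts, against 615390 and 619942 in siHoxa5 libraries 1 and 3. A link between library total and this component was not tested.

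PKNOX2 alone among the 9 genes passed the test. PKNOX2, a relative of MEIS that pairs with PBX proteins, was higher in the siHoxa5 libraries, 60.5 ± 12.0 against 38.2 ± 7.13 CPM (SD, n = 4 each). The other 4 genes that could be tested, PBX2, PBX3, MEIS1 and MEIS2, had log2 fold changes between -0.09 and 0.12 and did not pass. MEIS3 and PKNOX1 had at most 4 counts in a library, and PBX4 and TGIF1 had no count.

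**Figure D1:**
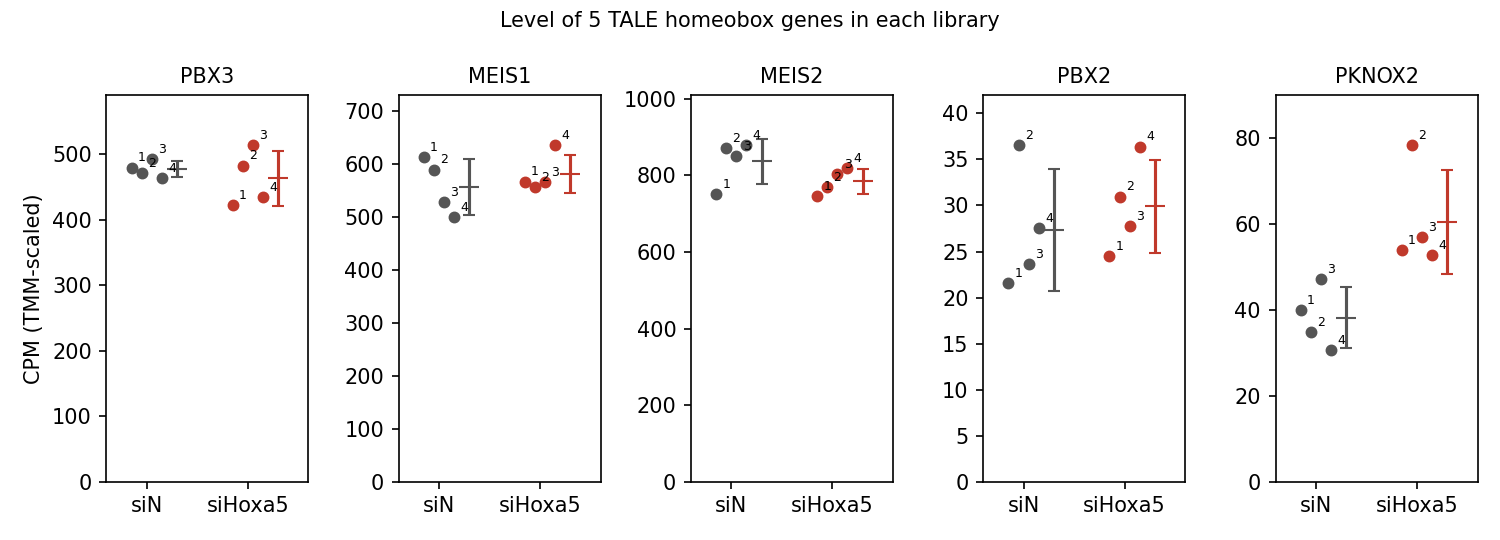
Level in TMM-scaled CPM of the 5 genes that passed the filter, in 4 siN libraries (grey) and 4 siHoxa5 libraries (red), with the library number beside each point and the mean ± SD to its right; each panel has its own axis, which starts at 0. The siHoxa5 points of PKNOX2 (52.7 to 78.3 CPM) all lie above its siN points (30.6 to 47.2 CPM), while the groups overlap for the other 4 genes.

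PKNOX2 is annotated on chromosome 9, 36890982 to 37147407, minus strand. It had 26, 22, 30 and 20 counts in siN libraries 1 to 4, or 40.0, 34.9, 47.2 and 30.6 CPM. In siHoxa5 libraries 1 to 4 it had 33, 43, 35 and 29 counts, or 53.9, 78.3, 57.1 and 52.7 CPM. Every siHoxa5 library was above every siN library, with siHoxa5 library 2 the highest and siN library 4 the lowest. The log2 fold change was 0.66 (SE 0.22, 95% interval 0.22 to 1.09, edgeR adjusted p = 0.0487), a 1.58-fold difference. Over all 70 assignments of libraries to groups, a two-sided exact permutation test of its CPM had p = 0.0286, the smallest it can give with 4 libraries against 4. Among all tested genes, 3.74% were called higher in siHoxa5, 3.38% were called lower, 12.0% had groups that did not overlap and 6.19% lay higher in siHoxa5 without overlap. In rank of p, PKNOX2 was number 211 of the 215 genes called.

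PKNOX2 was also set against the counts of its abundant relatives in the same libraries, a ratio that uses no scaling between libraries. Per 100 counts of MEIS2, PKNOX2 had 5.33, 4.01, 5.56 and 3.49 counts in siN libraries 1 to 4. It had 7.22, 10.2, 7.11 and 6.44 in siHoxa5 libraries 1 to 4. The groups did not overlap for this ratio, nor per 100 counts of PBX3 (6.60 to 9.58 in siN and 11.1 to 16.2 in siHoxa5). Per 100 counts of MEIS1 they did overlap, at 5.93 to 8.96 in siN and 8.31 to 14.1 in siHoxa5, because siHoxa5 library 4 lay below siN library 3.

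The call of PKNOX2 was at the threshold and was lost in 10 of 15 alternatives, although the direction was higher in all 15. It ended without siHoxa5 library 2 (log2 fold change 0.52, edgeR adjusted p = 0.236), without siN library 4 (0.56, adjusted p = 0.171), without siN library 2 (0.62, adjusted p = 0.118), without siN library 1 (0.68, adjusted p = 0.0848) and without siHoxa5 library 3 (0.68, adjusted p = 0.0782). It also ended with the DESeq2 test (0.66, adjusted p = 0.141), with limma-voom (0.65, adjusted p = 0.0565), with edgeR on library totals without further scaling (0.64, adjusted p = 0.0573) and with edgeR on every gene that had a count (0.67, adjusted p = 0.110). Without siHoxa5 libraries 2 and 4, which lay apart on the first component, it was 0.54 (edgeR adjusted p = 0.289). The summed level of cardiomyocyte markers was higher in the siHoxa5 libraries (values above). Of the 10 of them tested, edgeR called 5 higher and 1 lower. Fibroblast markers, of which 8 of 10 had a count with LUM and TCF21 at 0, summed to 10221 to 10909 CPM in siN. In siHoxa5 they summed to 10961 to 12881 CPM, and of 3 tested edgeR called 1 higher and 0 lower. Among all tested genes, 3.74% were called higher and 3.38% lower. Summed endothelial markers, of which 2 of 8 had a count, reached at most 32.7 CPM in any library. Leukocyte markers, of which 3 of 10 had a count, reached at most 1.82 CPM. With abundant heart genes also at 0 in this table, these low sums do not show that such cells were absent. The part of these marker levels in the result was not tested, and in bulk RNA a changed share of cells and changed RNA per cell cannot be told apart.

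**Figure D2:**
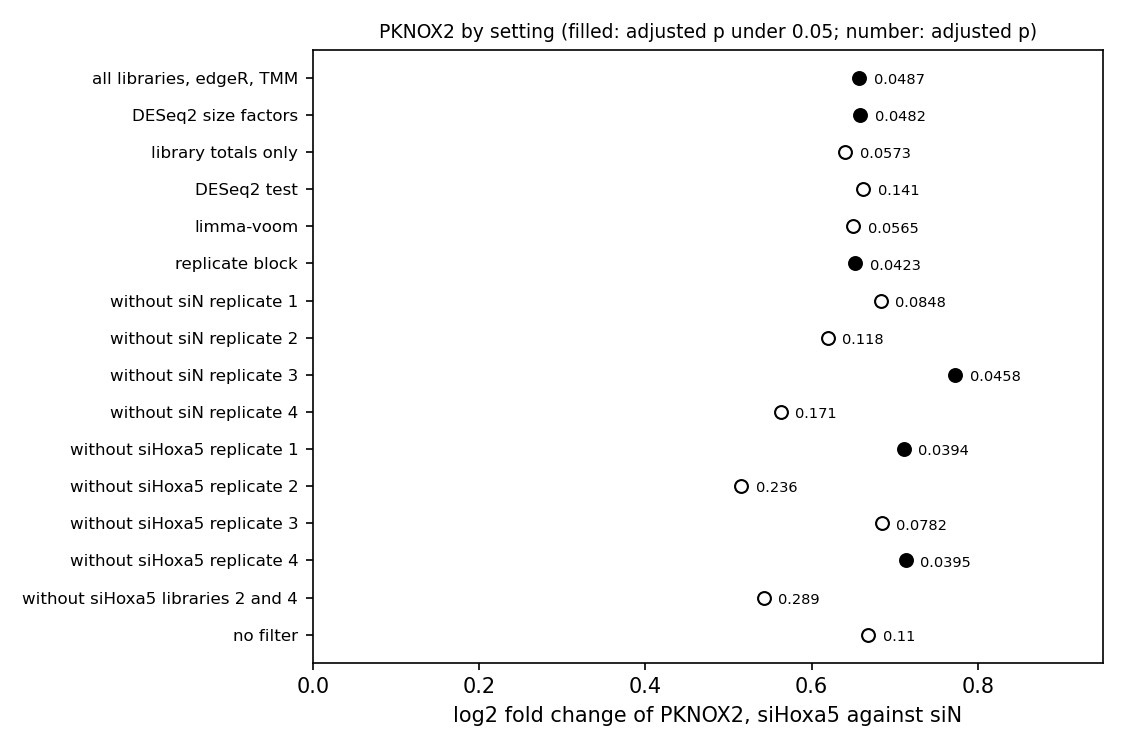
The x axis gives the log2 fold change of PKNOX2, siHoxa5 against siN, and each line of the y axis a setting of the analysis; filled points have an adjusted p under 0.05 and the number beside each point is that adjusted p. All values lie to the right of 0, between 0.52 and 0.77, and 6 of the 16 points, the main one included, are filled.

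MEIS2, a MEIS factor of developing heart and limb, was the most abundant of the 9 by counts and is annotated on chromosome 2, 115863064 to 116065839, minus strand. It stood at 751, 870, 850 and 878 CPM in siN libraries 1 to 4 and at 746, 769, 802 and 818 CPM in siHoxa5 libraries 1 to 4. The groups overlapped, because siN library 1 lay with the siHoxa5 libraries, while the other 3 siN libraries were above all 4 siHoxa5 libraries. The mean went from 837 ± 58.8 to 784 ± 32.6 CPM (SD, n = 4 each), with a log2 fold change of -0.09 (SE 0.07, 95% interval -0.23 to 0.04, edgeR adjusted p = 0.467). The interval limits a decrease in MEIS2 to a level of 0.855 of siN and an increase to 1.03.

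MEIS1 (chromosome 11, 18879817 to 19018985, minus strand), the member best known from the arrest of the cardiomyocyte cell cycle, stood at 612, 589, 527 and 499 CPM in siN libraries 1 to 4. In siHoxa5 libraries 1 to 4 it stood at 567, 556, 566 and 635 CPM. The siN libraries spanned nearly the whole range of both groups, and siHoxa5 library 4 was the highest of all 8. The means were 557 ± 52.5 CPM in siN and 581 ± 36.4 CPM in siHoxa5 (SD, n = 4 each). The log2 fold change was 0.06 (SE 0.08, 95% interval -0.09 to 0.21, edgeR adjusted p = 0.728), so a rise above 1.16-fold or a fall below 0.939 of siN lies outside its interval. Counts of MEIS1 per 100 of MEIS2 ranged from 56.9 to 81.6 in siN and from 70.5 to 77.6 in siHoxa5, the siHoxa5 range lying within that of siN.

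PBX3 (chromosome 2, 34171457 to 34373142, minus strand), a DNA-binding partner of HOX proteins, stood at 480, 471, 493 and 464 CPM in siN libraries 1 to 4. It stood at 423, 483, 514 and 435 CPM in siHoxa5 libraries 1 to 4. The siHoxa5 libraries lay on both sides of the siN libraries, with libraries 1 and 4 below and library 3 above all of them. The means were 477 ± 12.2 and 463 ± 42.3 CPM (SD, n = 4 each), with a wider spread in siHoxa5. The log2 fold change was -0.04 (SE 0.08, 95% interval -0.20 to 0.12, edgeR adjusted p = 0.848). Its interval reaches down to 0.871 and up to 1.08 of the siN level.

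PBX2 (chromosome 17, 34591266 to 34597400, plus strand), also a PBX partner of HOX proteins, was measured with 14 to 23 counts per library. It stood at 21.5, 36.5, 23.6 and 27.6 CPM in siN libraries 1 to 4 and at 24.5, 31.0, 27.7 and 36.4 CPM in siHoxa5 libraries 1 to 4. The groups overlapped over almost their whole range, with means of 27.3 ± 6.63 and 29.9 ± 5.07 CPM (SD, n = 4 each). With a log2 fold change of 0.12 (SE 0.29, 95% interval -0.44 to 0.69, edgeR adjusted p = 0.872), a difference as large as that of PKNOX2 lies inside the interval of PBX2. The intervals of PBX3, MEIS1 and MEIS2 were narrower and ended at 1.16-fold or lower.

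**Figure D3:**
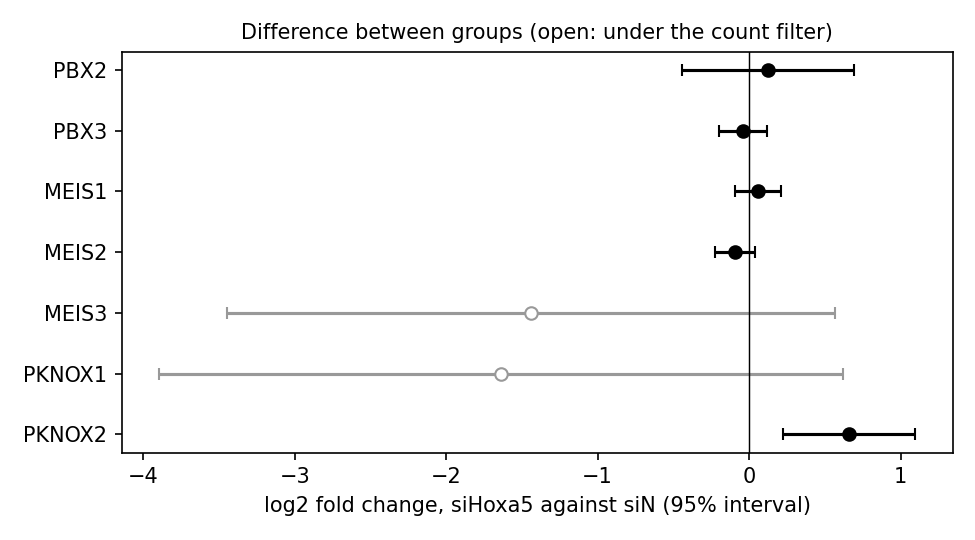
Points give the log2 fold change of siHoxa5 against siN (x axis) for the 7 genes with any count (y axis) and bars its 95% interval from the edgeR fit; filled points passed the filter on low counts, open ones come from a fit without it. Only the interval of PKNOX2 (0.22 to 1.09) excludes 0, those of PBX3, MEIS1 and MEIS2 are narrow around it, and those of MEIS3 and PKNOX1 are wide.

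The spread between libraries was set beside what counting alone gives. For PBX2 the coefficient of variation of the CPM was 24.3% in siN and 17.0% in siHoxa5, against 23.9% and 24.1% from counting error. For PKNOX2 it was 18.7% in siN and 19.9% in siHoxa5, against 20.2% and 16.9%. PBX3 varied by 2.56% in siN, below its counting error of 5.71%, and by 9.12% in siHoxa5, above its 6.09%. MEIS1 varied by 9.42% in siN and 6.27% in siHoxa5, against 5.29% and 5.45% from counting. MEIS2 varied by 7.03% in siN, above its counting error of 4.31%, and by 4.15% in siHoxa5, against 4.69%. For PBX2 and PKNOX2 the spread was thus above the counting error in 1 group and below it in the other. For PBX3, MEIS1 and MEIS2 it lay above the counting error in at least 1 group. A spread over 4 libraries is itself uncertain, and no difference from the counting error was tested.

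MEIS3 and PKNOX1 had few counts, near or under the 3 counts per library (4.60 to 5.46 CPM) that a count of 0 still allows. MEIS3 (chromosome 7, 16175090 to 16186504, plus strand), the third MEIS gene, had 3, 1, 2 and 4 counts in siN libraries 1 to 4 and 1, 0, 0 and 2 in siHoxa5 libraries 1 to 4. Summed over each group, 10 counts stood against 3, a rate in siHoxa5 of 0.331 of that in siN (exact 95% interval 0.0586 to 1.29). PKNOX1 (chromosome 17, 31564734 to 31607693, plus strand), the relative of PKNOX2 also known as PREP1, had 1, 2, 2 and 3 counts in siN libraries and 2, 0, 0 and 0 in siHoxa5 libraries. For PKNOX1, 8 counts stood against 2, a ratio of 0.276 (0.0286 to 1.38). In the fit without the filter both had edgeR adjusted p = 0.585, and two-sided exact permutation tests of the CPM had p = 0.143 for MEIS3 and 0.114 for PKNOX1 (both 0.143 adjusted over these 2). Fewer counts in siHoxa5 were seen for both, and neither difference was distinguishable from counting error.

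PBX4 (chromosome 8, 69832491 to 69872292, plus strand), the PBX gene known mainly from testis, and TGIF1 (chromosome 17, 70844205 to 70853546, minus strand), the repressor of TGF-beta responses, had 0 counts in all 8 libraries. In a single library a count of 0 allows a level of up to 4.60 to 5.46 CPM, against a mean of 28.6 CPM for PBX2, the lowest by CPM of the 5 genes tested. No comparison between the groups could be made for either gene. Several abundant heart genes were likewise at 0 in this table (above), so that a count of 0 here does not show that a gene is silent.

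The 9 genes together made up 1944 ± 45.4 CPM in siN and 1921 ± 73.1 CPM in siHoxa5 (SD, n = 4 each). MEIS2 gave 41.9% of this sum over all libraries, MEIS1 29.4%, PBX3 24.3%, PKNOX2 2.55% and PBX2 1.48%. The summed MEIS level was 1367 to 1460 CPM in siN and 1314 to 1457 CPM in siHoxa5. The summed level of PBX2 and PBX3 was 492 to 516 CPM in siN and 447 to 541 CPM in siHoxa5. Both sums overlapped between groups, and PKNOX2 is too scarce to move the total. Over the 5 genes that passed the filter the median log2 fold change was 0.06, with 3 values above 0 and 2 below, beside a median of -0.0037 over all 3020 tested genes, of which 1492 were above 0.

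Shares and ranks by CPM also reflect transcript length, so the order of levels was taken per kilobase of mouse transcript. This order holds only if the counts were made against the mouse annotation, which is in doubt (above). With the median length of the coding transcripts, the order in siN was PBX3 (921 ± 23.6 CPM per kb, SD, n = 4), MEIS2 (276 ± 19.4), MEIS1 (129 ± 12.1), PKNOX2 (54.6 ± 10.2), PBX2 (17.2 ± 4.17), MEIS3 (3.24 ± 1.63) and PKNOX1 (2.31 ± 0.928). In siHoxa5 the order was the same, with PBX3 at 895 ± 81.6, MEIS2 at 258 ± 10.7, MEIS1 at 134 ± 8.41, PKNOX2 at 86.4 ± 17.2 and PBX2 at 18.8 ± 3.19 CPM per kb. In both groups each of the first 5 was apart from the next in all libraries, and MEIS3 and PKNOX1 overlapped. The place of PBX3 rests on the length chosen: the median of its coding transcripts is 0.518 kb and the longest 2.73 kb. With the longest transcript of each gene, MEIS2 came first in siN (225 ± 15.8 CPM per kb) and PBX3 next (174 ± 4.47), and PKNOX2 (10.5 ± 1.96) and PBX2 (8.90 ± 2.16) overlapped. Which transcripts these cells made was not measured.

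**Figure D4:**
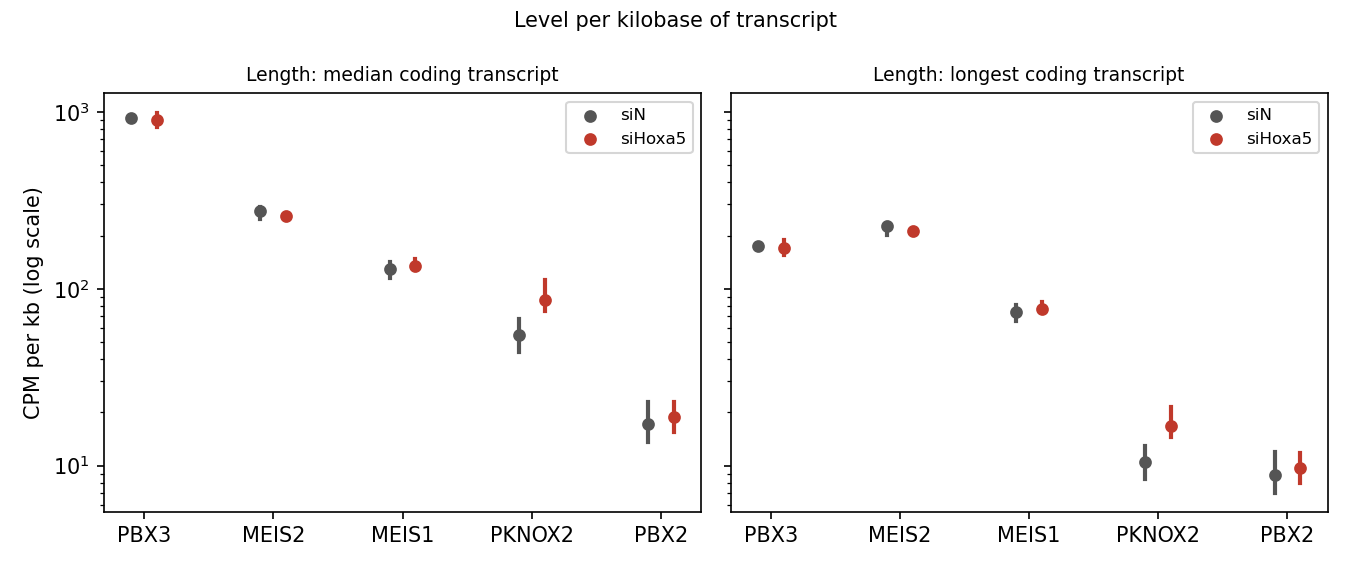
Level per kilobase of transcript (y axis, CPM per kb, log scale) of the 5 genes that passed the filter, with the median (left) or longest (right) coding transcript of GENCODE M21 as the length; points are means and bars the range over 4 siN (grey) or 4 siHoxa5 (red) libraries. MEIS2, PBX3 and MEIS1 lie above PKNOX2 and PBX2 with either length, while PBX3 moves from first to second place. The values hold only if the counts were made against this annotation, which is in doubt.

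Ranked by mean CPM, which sets how well a gene is measured and is not a level per length, among the 3020 tested genes, MEIS2 was number 227, MEIS1 number 342, PBX3 number 430, PKNOX2 number 1986 and PBX2 number 2490. The first 3 of these were thus among the better measured genes of the table.

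The 3 genes whose log2 CPM followed PKNOX2 most closely over the 8 libraries were MBD5, a methyl-CpG-binding domain protein (Pearson r = 0.97), FGF13, an intracellular FGF homologue that binds sodium channels (r = 0.95), and TRPS1, a GATA-type repressor (r = 0.94). With the group means removed the values were 0.92, 0.92 and 0.89. The genes were picked by their likeness in these same libraries, so these values are no separate support for a likeness within a group. All 3 values describe the closest of 3019 genes in the same 8 libraries, and PKNOX2 itself rested on 20 to 43 counts. FGF13 rose from 72.8 to 139 CPM (log2 fold change 0.92, edgeR adjusted p = 4.13e-06) and MBD5 from 230 to 296 CPM (0.36, adjusted p = 0.0137), whereas TRPS1 had 0.18 (adjusted p = 0.467). The closest to MEIS2 was IER5L (r = 0.94), to MEIS1 CNOT9 (0.93), to PBX2 OSBP (0.93) and to PBX3 HDGFL3 (0.91), none of which passed the test.

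The genes of the HOX proteins that these factors partner had few counts in this table. Of 39 HOX genes, 17 had a count, with 62 counts over all libraries and at most 4 in a library, and none passed the filter. Of all 33514 rows, 7926 had a count. Abundant heart genes were also at 0 in this table (above), so low counts here do not show that HOX genes were silent. Among other TALE genes, IRX5, an Iroquois factor of the cardiac repolarization gradient, was the only one of TGIF2, TGIF2LX, IRX1 to IRX6 and MKX that passed the filter. IRX5 stood at 102 ± 23.1 CPM in siN and 104 ± 11.8 CPM in siHoxa5 (log2 fold change 0.03, SE 0.16, edgeR adjusted p = 0.949), with overlapping groups. IRX4, a ventricular Iroquois factor, had 2 to 11 counts per library. TGIF2, the paralogue of TGIF1, had 1, 3, 2 and 2 counts in siN and 0, 2, 0 and 0 in siHoxa5.

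Proteins that work with HOX and TALE factors were better covered: 21 of 27 listed genes were tested and edgeR called none, beside 7.12% of all tested genes, while 2 had an unadjusted p under 0.05. DESeq2 and limma-voom also called none of them, with 1 and 2 at an unadjusted p under 0.05. CTBP1, a corepressor that TGIF1 recruits, had 52.3, 33.3, 48.8 and 38.3 CPM in siN libraries 1 to 4 and 52.3, 67.4, 71.7 and 74.6 in siHoxa5 libraries 1 to 4. Only siHoxa5 library 1 lay within the siN range, and the log2 fold change of CTBP1 was 0.62 (SE 0.21, edgeR adjusted p = 0.0531). CTBP1 passed the threshold in 3 alternatives. It did so without siHoxa5 library 1 (0.72, adjusted p = 0.0233) or siN library 1 (0.72, adjusted p = 0.0498). It also passed with the replicate number as a block (0.61, adjusted p = 0.0478). In the other 12 alternatives CTBP1 did not pass. Among these were the DESeq2 test (0.62, adjusted p = 0.148) and the fit without siHoxa5 libraries 2 and 4 (0.52, edgeR adjusted p = 0.270). MYH10, the non-muscle myosin heavy chain reported to hold PBX proteins in the cytoplasm, had 0.19 (SE 0.08, edgeR adjusted p = 0.168). Without siHoxa5 libraries 2 and 4, a setting chosen after seeing the data, MYH10 had 0.32 and passed (adjusted p = 0.00974). In the other 14 alternatives MYH10 did not pass. HDAC1, a deacetylase of repressor complexes, had -0.23 (adjusted p = 0.261), and SMAD2, a TGF-beta signal transducer bound by TGIF1, had 0.46 (adjusted p = 0.302). The median over the 21 was 0.03.

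Of 10 genes reported as targets of MEIS or PBX factors, 9 had a count and 2 were tested, with neither called by edgeR, DESeq2 or limma-voom and neither at an unadjusted p under 0.05. HIF1A, the hypoxia-inducible factor, had a log2 fold change of -0.15 (edgeR adjusted p = 0.516) and EPAS1, its paralogue HIF-2alpha, 0.25 (adjusted p = 0.664). EPAS1 rested on 10 to 33 counts per library and ranged from 0.019 without siHoxa5 library 3 to 0.47 without siHoxa5 library 4, and was 0.71 without siHoxa5 libraries 2 and 4 (edgeR adjusted p = 0.156), without passing in any of these. The cell cycle inhibitor genes CDKN1A, CDKN2A and CDKN2B, through which MEIS1 is reported to act in cardiomyocytes, had at most 2 counts in any library, with 4, 0 and 0 counts summed over siN and 1 of each in siHoxa5, too few to compare.

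Of 14 listed components and response genes of the TGF-beta pathway, on which TGIF1 acts, 8 were tested. Of these, 2 fell, none rose and 6 did not pass (median log2 fold change -0.08), beside 3.38% of all tested genes called lower and 3.74% called higher. LTBP1, which stores latent TGF-beta in the matrix, went from 379 ± 16.1 to 269 ± 32.6 CPM (SD, n = 4 each), with no overlap between groups (log2 fold change -0.49, SE 0.09, edgeR adjusted p = 5.70e-05). SMAD7, an inhibitor that the pathway itself induces, went from 691 ± 51.3 to 556 ± 63.2 CPM (-0.31, SE 0.07, adjusted p = 0.00157), and siHoxa5 library 4 (635 CPM) lay within the siN range. LTBP2 had 0.46 (adjusted p = 0.176) and TGFB3, a ligand, 0.11 (adjusted p = 0.365). LTBP1 and SMAD7 passed under all 15 alternatives, which PKNOX2 did not.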

How the data were processed

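RNA-seq of 8 libraries of mouse cardiomyocytes, 4 siN and 4 siHoxa5, was used, with groups and replicate numbers from the titles. The authors deposited estimated counts per gene symbol, not normalized: whole numbers except in 4 rows. The submitters' processing notes name mm10, STAR 2.6.1b, HTSeq, R 3.5.3 and FastQC. The annotation, the strand setting and the role of each tool are not stated there, and the library kit keeps no strand information. Each of the 8 library files was identical to its column of the series table.

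After rounding, counts were tested with edgeR 4.0.16 (robust quasi-likelihood fit; limma 3.58.1, R 4.3.3) after TMM scaling and filterByExpr (minimum count 10, minimum total 15), with group as the only term and Benjamini-Hochberg adjustment over 3020 genes (98.6% of counts), threshold 0.05. Library totals of 560191 to 658192 limited precision: the median SE of a log2 fold change was 0.17. CPM use TMM-scaled totals, and log2 CPM a prior count of 2. Intervals for ratios of counts are exact binomial and cover counting error only. Genes below the filter were fitted without it, over 7926 genes. Alternatives were other scaling, no filter, DESeq2 1.42.0, limma-voom, a replicate block and leaving out libraries; omitting siHoxa5 libraries 2 and 4 was chosen after seeing the data.

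Symbols were matched to GENCODE M21 (GRCm38) by name with case ignored. The genes named are the 9, HOXA5, up to 4 genes with the smallest p in each related list, and the 3 genes closest in log2 CPM to each tested member. IRX4, TGIF2, the CDKN genes and the marker genes were named outside this rule. The members and lists were chosen with earlier results of these data known. One gene of the related lists is not reported here and is left out of their counts.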

Additional observations from a re-analysis of the deposited data

Results flagged for a closer look

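In groups of 4 libraries, 3 values stood apart from the rest of their group by Dixon's criterion at the 95% level, of 16 groups looked at. The criterion is the gap to the nearest library over the range. Chance gives about 1 in 20 for normally distributed values, a rate that need not hold for groups with few counts. MEIS1 in siHoxa5 library 4 (635 CPM) lay above the other 3 siHoxa5 libraries, with a gap of 0.861 of the range. PKNOX2 in siHoxa5 library 2 (78.3 CPM) had a gap of 0.831, and the log2 fold change of PKNOX2 without that library was 0.52 (edgeR adjusted p = 0.236). PKNOX1 in siHoxa5 library 1 (3.27 CPM) was the only siHoxa5 library with counts of that gene, 2 in all. Its gap is therefore the whole range by construction, and the criterion says nothing about that library.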

How the results depend on the processing

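Of 15 alternatives, 5 kept the count of called members at 1 (PKNOX2). The count was 0 with library totals only, the DESeq2 test, limma-voom, no filter, and without siHoxa5 libraries 2 and 4, and 0 to 1 when each library was left out in turn; PKNOX2 was higher throughout (0.52 to 0.77 on the log2 scale with 1 library left out). Over all genes 215 were called, 119 with the DESeq2 test, 143 without siHoxa5 libraries 2 and 4, and 145 to 260 with 1 library left out. The replicate block called 250 genes, all 215 among them, and PKNOX2 (log2 fold change 0.65, edgeR adjusted p = 0.0423). Same-numbered deviations from the group means correlated at 0.07, -0.01, -0.02 and 0.04 over 3020 genes, and not every library correlated best with its own number. These values cannot decide whether the numbers pair the libraries, because counting error at these library totals can hide a pairing. HOXA5 moved between -0.077 and 0.57 with 1 library left out, changing sign without siN replicate 2 (-0.075) and without siHoxa5 replicate 3 (-0.077). PBX3 ranged from -0.096 to 0.0031 with 1 library left out, its sign changing without siHoxa5 replicate 1 alone, and PBX2 had -0.057 without siHoxa5 libraries 2 and 4. IRX5 ranged from -0.070 to 0.14, its sign changing without siN replicate 1 or 2 (-0.070 and -0.050) or siHoxa5 replicate 1 (-0.038). The cause of these changes was not tested. MEIS1 and MEIS2 kept their direction under all 15. The count of called genes in the related lists was 2, and 2 to 3 under the 15 alternatives. Both were among the 8 tested TGF-beta genes, and none was among the 21, 2 and 1 tested in the other lists. Over all tested genes 7.12% were called. Low counts leave the widest intervals for PBX2, MEIS3, PKNOX1 and HOXA5.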
